A study of Mus musculus with 6 samples.

Results

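The cytosolic ribosomal protein genes encode the proteins of the large (Rpl) and small (Rps) subunits of the ribosome that translates nuclear messages. Their members here were all genes with a probe set whose only platform symbol starts with Rpl or Rps, without the Rps6k kinases and 3 predicted pseudogenes (Rpl14-ps1, Rps19-ps3 and Rps4l). The rule gave 62 genes out of 19938 with a probe set of their own, 38 with an Rpl and 24 with an Rps symbol. Together they had 217 probe sets, and the one with the highest mean stood for each gene. Rps19bp1, a binding partner of Rps19, and Rps23rg1, a mouse gene derived from a retroposed Rps23 message, entered by symbol and are not ribosomal proteins. A further 20 ribosomal protein genes, among them Rpl3, Rpl11, Rpl22l1, Rpl36al, Rpl39, Rps24 and Rps27, appeared only in probe sets that list several genes, so no value belongs to them alone.

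The study concerned SPARC, a secreted matricellular glycoprotein, and its link to glucose tolerance and the energy-sensing kinase AMPK. Total RNA from gastrocnemius, a calf muscle, was hybridised to Affymetrix whole-transcript gene arrays. There were 3 arrays from Sparc knockout (KO) mice, whose label calls the knockout homogenous, and 3 arrays from wild type (WT) mice. All were males aged 12 weeks, and the labels name no treatment. KO and WT mice share 1 strain entry, B6;129S-Sparctm1Hwe/J, a mixed background of B6 and 129S. The labels name no cell type restriction for the Sparc allele and give no litters. Each array was taken as 1 mouse, since the stated design profiled muscle mouse by mouse.

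A cytosolic ribosome is assembled in the nucleolus from ribosomal RNA made mainly by RNA polymerase I and from the proteins of both subunits. Vertebrate ribosomal protein messages begin with a run of pyrimidines, the terminal oligopyrimidine (TOP) tract, through which the kinase complex mTORC1 and the RNA-binding protein LARP1 control their translation. AMPK restrains mTORC1. The arrays measured message levels, not translation or ribosome number.

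The promoters of these genes were searched for short motifs near their start sites. RefSeq windows of GRCm38.p6 were found for 49 members, in 58 windows reaching 250 bases before and 50 after the annotated start. A TOP start, scored as a C at the annotated start followed by at least 4 more pyrimidines, was found in 10 of the 58 windows (17.2%), against 2.51% of 32851 windows of all genes. With a tract allowed to begin within 5 bases of the annotated start, the shares were 20 of 58 (34.5%) against 18.3%. CCGGAA, the core bound by ETS family factors, was found on either strand before the start in 22 windows (37.9%), against 12.0% of all windows. ATGGCG, the core of the YY1 site, was found in 9 windows (15.5%), against 5.73%, and TATAAA in 3 windows (5.17%), against 12.4%. Each motif was counted on its own, matches of different motifs may share bases, and a match is a string of letters and not a measured site. The stretches below run from 100 bases before to 15 bases after the annotated start, with those cores and any TOP tract in capitals.
Rps6, chr4:86857353-86857467, minus strand: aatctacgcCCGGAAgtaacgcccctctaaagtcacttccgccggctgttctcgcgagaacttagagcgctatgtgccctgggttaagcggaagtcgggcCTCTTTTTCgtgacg
Rpl38, chr11:114668480-114668594, plus strand: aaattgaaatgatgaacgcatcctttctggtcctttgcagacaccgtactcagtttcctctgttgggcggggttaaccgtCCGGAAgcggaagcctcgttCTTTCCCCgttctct
Rpl34, chr3:130730384-130730498, minus strand: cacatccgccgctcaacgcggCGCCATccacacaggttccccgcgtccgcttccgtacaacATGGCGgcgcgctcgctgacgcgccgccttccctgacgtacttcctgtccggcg
Rps3a1, chr3:86142654-86142768, minus strand: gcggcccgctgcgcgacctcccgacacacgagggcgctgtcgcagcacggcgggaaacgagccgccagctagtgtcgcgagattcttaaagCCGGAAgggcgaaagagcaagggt
Rpl3l, chr17:24727726-24727840, plus strand: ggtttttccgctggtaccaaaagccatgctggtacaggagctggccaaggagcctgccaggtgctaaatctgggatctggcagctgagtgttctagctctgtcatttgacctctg
Rps6, the S6 kinase substrate of the small subunit, and Rpl38 are shown as examples that carry both a TOP tract at the annotated start, of 9 and of 8 bases, and a CCGGAA core. They were chosen for these features. Rpl34 and Rps3a1 are shown because they alone passed the test between genotypes. Neither stretch has a TOP tract exactly at the annotated start, though for Rpl34 the search within 5 bases found one. Rpl34 holds ATGGCG on both strands, and Rps3a1 holds CCGGAA. The stretch of Rpl3l, the striated-muscle counterpart of Rpl3, held none of these matches.

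Sparc itself, the check of the labels, read 6.74, 6.46 and 5.83 on the log2 scale in KO arrays 1 to 3, against 11.80, 11.73 and 11.87 in WT arrays 1 to 3. That is 43.9-fold lower in KO muscle (log2 change -5.46 ± 0.20 SE, limma adjusted p = 2.08e-05). All 12 listed skeletal muscle fibre markers lay above the filter on dim genes, and their summed linear intensity was 60069.6, 67622.9 and 67191.5 in KO arrays and 69497, 69920.6 and 68844 in WT arrays. Macrophage markers had positive changes in 14 of 14 genes (median 0.59) and fibroblast and matrix markers in 12 of 12 (median 0.67), with 0 past the adjusted threshold by limma in either list. At an unadjusted p under 0.05, 10 of the macrophage and 9 of the fibroblast markers were higher, where 8.16% of all genes tested were higher and 10.3% lower. Tendon markers had positive changes in 10 of 10 genes (median 0.45), 4 of them higher at that unadjusted p. Fat cell markers had negative changes in 7 of 7 tested genes (median -0.48), 2 of them lower at that p, and neither list had a gene past the adjusted threshold by limma. Muscle fibre, satellite cell, endothelial and B and T cell markers had medians of -0.16, 0.08, 0.00 and 0.11, with 0 genes of these 4 lists past the adjusted threshold by limma (1, 1, 0 and 1 higher and 3, 0, 0 and 0 lower at an unadjusted p under 0.05). No marker was listed at 0, since the lowest deposited value was 1.59. In bulk muscle, fewer cells of a type and less RNA per cell cannot be told apart.

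Message levels of the ribosomal proteins differed little between Sparc KO and WT muscle, and few members stood apart from the rest. Of the 62 members, 61 passed the filter on dim genes and were tested. Their median log2 change, KO over WT, was -0.08, beside 0.00 for all 16487 genes tested. The change was negative in 45 members and positive in 16, where 50% of all genes tested were negative, and it lay within 0.2 of 0 in 48 members. At an adjusted p under 0.05 (limma, Benjamini-Hochberg over all genes tested), 1 member was higher in KO muscle, Rps3a1, where 0.321% of all genes were called higher. In the other direction 1 member was lower, Rpl34, where 0.673% of all genes were called lower.

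**Figure D1:**
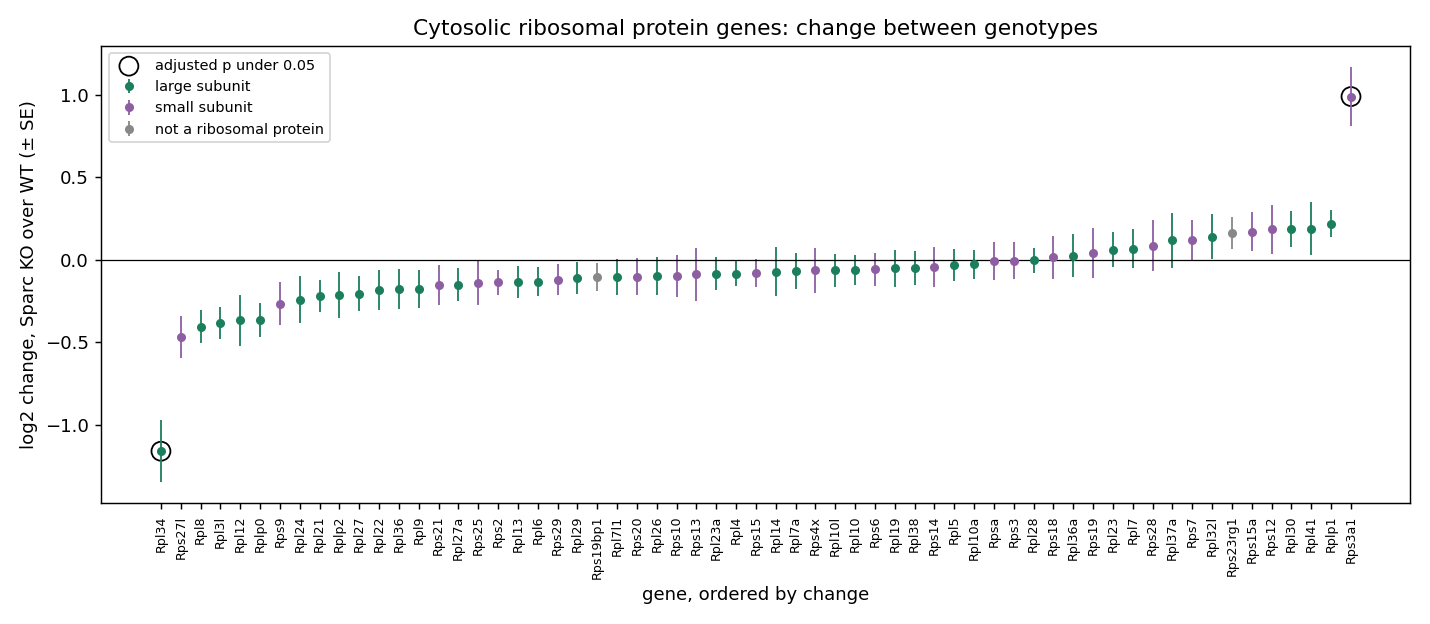
Log2 change of the 61 tested genes, KO over WT, ordered from the most negative to the most positive, with bars of 1 SE from limma and circles around the genes past an adjusted p of 0.05. Rpl34 at -1.16 and Rps3a1 at 0.99 stand far from the other genes, which lie between -0.47 and 0.22.

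Weaker criteria gave shares close to those of all genes, or below them. At an unadjusted p under 0.05, 7 members were lower (11.5%, beside 10.3% of all genes) and 2 were higher (3.28%, beside 8.16%). All KO arrays lay below all WT arrays in 10 members (16.4%, beside 13.8%), namely Rpl34, Rps27l, Rpl8, Rpl3l, Rplp0, Rpl27, Rps2, Rpl6, Rps19bp1 and Rpl4. All KO arrays lay above all WT arrays in Rps3a1, Rplp1 and Rps23rg1 (4.92%, beside 11.1%). A change of over 0.3 in size was seen in 7 members (11.5%, beside 16.6%).

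The large and small subunits gave like summaries. The 37 tested genes counted with the large subunit by their Rpl symbol, Rpl7l1 among them, had a median log2 change of -0.08. Of these, 29 were negative and 8 positive. The 22 tested small-subunit genes had a median of -0.06, with 15 negative and 7 positive. Rpl39l, a testis-enriched relative of Rpl39, was the member left untested. It read 2.56, 2.44 and 2.79 in KO arrays and 2.42, 2.35 and 2.57 in WT arrays, all under the dim filter of 3.90.

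Rpl34, a large-subunit protein with no bacterial counterpart, had the largest change among the members. Its probe set read 8.89, 8.27 and 9.04 in KO arrays 1 to 3, against 10.03, 9.75 and 9.90 in WT arrays 1 to 3. The groups did not overlap, and KO array 2 was the lowest. The level was 2.23-fold lower in KO muscle (log2 change -1.16 ± 0.19 SE, limma adjusted p = 0.0344). Other probe sets did not show this. The 4 probe sets that list Rpl34 together with 2 other symbols changed by -0.14 to -0.09, and the one with the smallest change read 11.97, 11.50 and 11.69 in KO arrays against 11.91, 11.80 and 11.72 in WT arrays. Such probe sets cannot be assigned to 1 gene, and why the single-symbol probe set differs from them was not tested. Probe sequences were not used here, so whether strain differences under the probes bear on this value, or on that of Rps3a1, was not tested either. The call was lost without any 1 of the WT arrays (limma adjusted p over all omissions 0.00764 to 0.185).

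Rps3a1, whose protein lies near the exit of messenger RNA from the small subunit, was the member that rose. It read 10.43, 9.71 and 10.07 in KO arrays, against 9.32, 8.92 and 8.99 in WT arrays. The lowest KO array lay above the highest WT array. The level was 1.99-fold higher in KO muscle (log2 change 0.99 ± 0.18 SE, limma adjusted p = 0.0482). As with Rpl34, the value rests on a single probe set. The 2 probe sets that list Rps3a1 with 1 other symbol changed by 0.09 and -0.003, and the one at 0.09 read 10.86, 10.56 and 10.81 in KO arrays against 10.81, 10.61 and 10.56 in WT arrays. The cause of this disagreement was not tested. The call was lost without any 1 array other than KO array 2 (limma adjusted p over all omissions 0.0101 to 0.226), and also with an offset of 16 (0.0504), without the variance trend (0.0557) and after median centring (0.0922). Both Rpl34 and Rps3a1 lie on chromosome 3, and Sparc lies on chromosome 11, by the RefSeq annotation of GRCm38.p6. Whether these locations bear on either change in this mixed background was not tested.

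**Figure D2:**
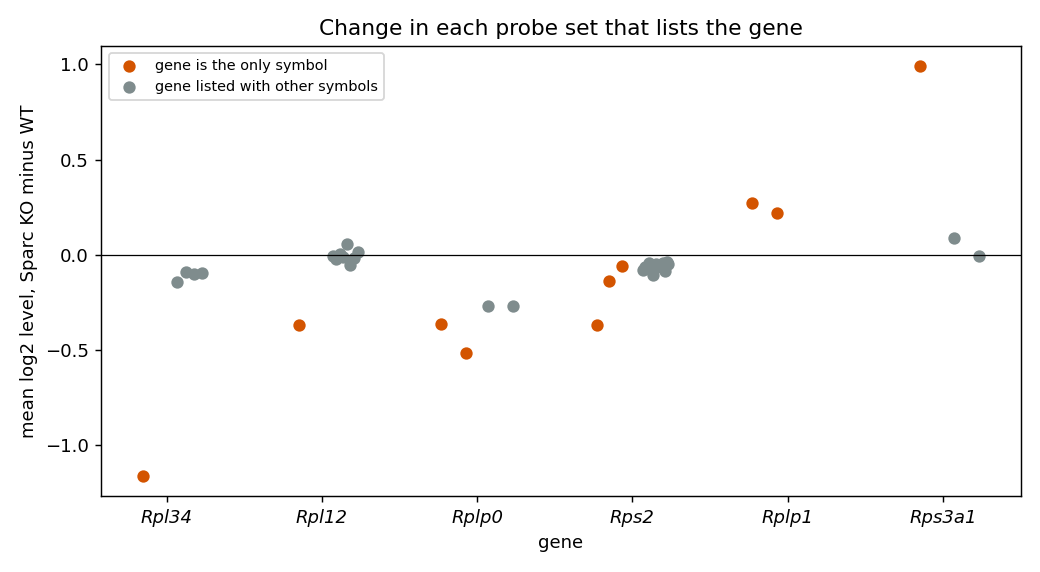
Difference in mean log2 level, KO minus WT, for each probe set that lists the gene, coloured by whether the gene is its only symbol or 1 of several. For Rpl34, Rpl12 and Rps3a1 the probe set with 1 symbol stands apart from the shared ones, which lie near 0, whereas all 4 probe sets of Rplp0 lie between -0.52 and -0.27.

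The acidic stalk of the large subunit, which recruits the GTPases that drive elongation, held 3 members with negative and 1 with a positive change, none past the threshold. Rplp0, its base protein, read 11.02, 10.89 and 11.23 in KO arrays, against 11.48, 11.35 and 11.40 in WT arrays. The groups did not overlap, and the log2 change of -0.36 ± 0.10 SE missed the threshold (limma adjusted p = 0.122). All 4 probe sets that list Rplp0 had negative changes. Its second single-symbol probe set changed by -0.52, and both probe sets shared with another symbol changed by -0.27. Rplp1, which binds Rplp0 as a dimer with Rplp2, read 11.63, 11.79 and 11.79 in KO arrays, against 11.56, 11.51 and 11.48 in WT arrays. All KO values lay above all WT values, and the log2 change was 0.22 ± 0.08 SE (limma adjusted p = 0.204), with 0.27 in its other probe set.

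Within an array, the log2 level of Rplp1 minus that of Rplp0 was 0.61, 0.90 and 0.57 in KO arrays and 0.08, 0.16 and 0.08 in WT arrays. The size of such a value reflects the probe sets, and what can be compared is how it moves between genotypes. The pair was chosen after its values were seen, so the difference of 0.58 between genotypes is a description with no test. Rplp2, on a single probe set, read 5.61, 5.68 and 6.05 in KO arrays and 6.16, 5.96 and 5.86 in WT arrays, which overlap. This probe set read far dimmer than those taken for Rplp0 and Rplp1, and the cause was not tested. Rpl12, which sits with Rplp0 at the base of the stalk, read 5.65, 5.59 and 5.35 in KO arrays, against 5.99, 6.12 and 5.58 in WT arrays. KO array 1 lay above WT array 3. The log2 change of -0.37 ± 0.15 SE (limma adjusted p = 0.256) came from a single-symbol probe set, while 8 shared probe sets changed by -0.05 to 0.06. The brightest shared one read 12.08, 11.82 and 12.02 in KO arrays and 12.06, 11.96 and 11.92 in WT arrays. The dimmest read 6.90, 6.44 and 6.82 in KO arrays and 6.77, 6.50 and 6.71 in WT arrays. All 8 read higher than the single-symbol probe set, and the cause was not tested.

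Around the peptidyl transferase centre, where peptide bonds form, all 4 measured members had negative changes, as had 45 of all 61 members. Their median was -0.23, and 0 passed the adjusted threshold by limma. At an unadjusted p under 0.05, 2 of the 4 were lower, beside 10.3% of all genes. The same was counted for other parts of the ribosome. The stalk and its base had a median of -0.29, with 2 of 4 lower and 1 higher at that p. The peptide exit (4 genes), mRNA entry channel (3), mRNA exit region (4) and small subunit head (8) had 0 lower. Their medians were -0.09, -0.14, 0.04 and -0.09. Rpl8 read 9.93, 9.74 and 9.70 in KO arrays, against 10.32, 10.19 and 10.08 in WT arrays. The groups did not overlap (log2 change -0.41 ± 0.10 SE, limma adjusted p = 0.099). Rpl3l, which replaces Rpl3 in mature striated muscle ribosomes, read 9.73, 10.01 and 9.86 in KO arrays, against 10.30, 10.24 and 10.21 in WT arrays. Here too the groups did not overlap, and KO array 2 was the highest KO array, unlike in most members (log2 change -0.38 ± 0.10 SE, limma adjusted p = 0.102). Without KO array 2 the change of Rpl3l was -0.46 and passed the threshold (limma adjusted p = 0.0253). Calls rose over all genes in that setting, where 1017 of 16487 genes passed. With all arrays 53 were called higher and 111 lower. Rpl3l and Rps2, a protein of the mRNA entry channel, are near neighbours on chromosome 17 with 4 annotated genes between them (Snhg9, Snora78, Snora64 and Ndufb10). The probe set taken for Rps2 read 11.46, 11.40 and 11.51 in KO arrays and 11.63, 11.56 and 11.58 in WT arrays. The 3 single-symbol probe sets of Rps2 changed by -0.37, -0.14 and -0.06. The 17 probe sets that list Rps2 with another symbol changed by -0.10 to -0.03. Rpl4 and Rpl10, the other 2 members at the centre, changed by -0.08 and -0.06.

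Rps27l, a paralogue of Rps27 known as a target of p53, read 9.78, 9.41 and 9.41 in KO arrays, against 10.16, 9.94 and 9.89 in WT arrays. The groups did not overlap, and the log2 change of -0.47 ± 0.13 SE missed the threshold (limma adjusted p = 0.119). Rps9, which lines the mRNA entry channel with Rps2 and Rps3, read 10.50, 10.01 and 10.35 in KO arrays, against 10.64, 10.56 and 10.45 in WT arrays. KO array 1 lay above WT array 3 (log2 change -0.26 ± 0.13 SE, limma adjusted p = 0.328). Rpl24, which forms a bridge to the small subunit, read 10.13, 9.79 and 10.21 in KO arrays, against 10.52, 10.17 and 10.16 in WT arrays. The groups overlapped (log2 change -0.24 ± 0.14 SE, limma adjusted p = 0.414).

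**Figure D3:**
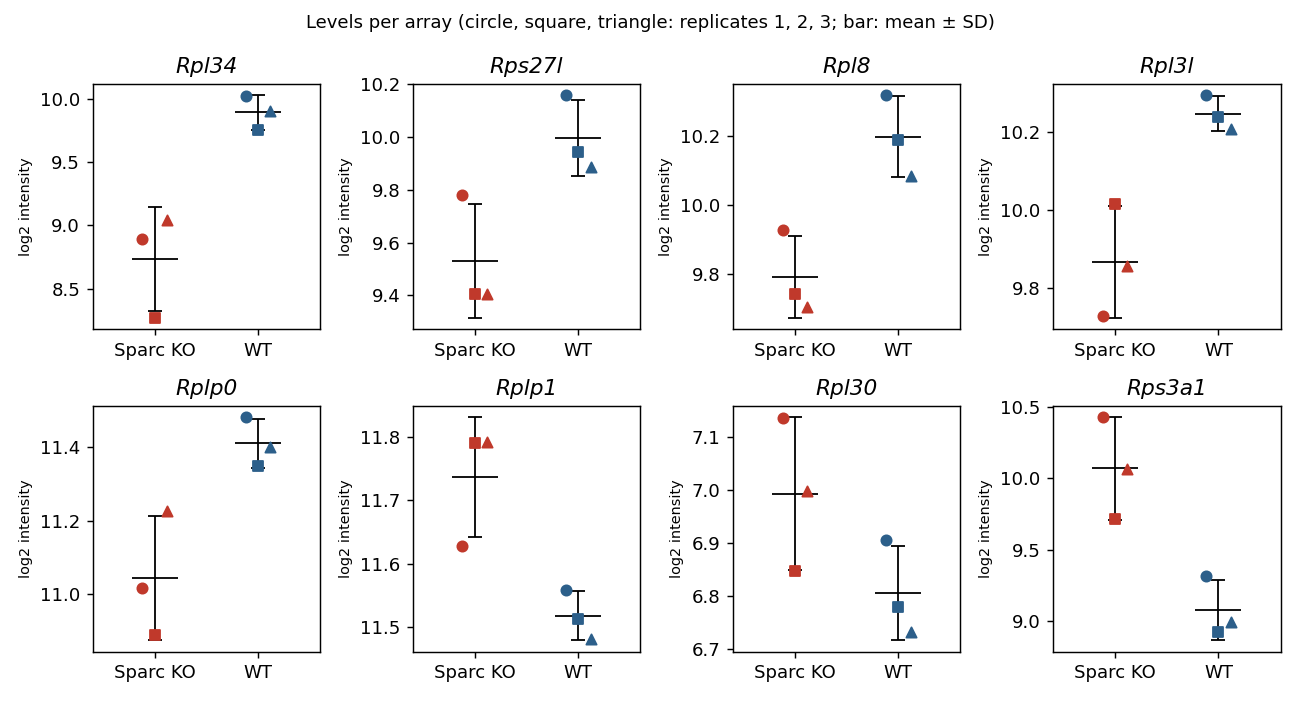
Log2 intensity of 8 members in each array, with KO arrays on the left and WT arrays on the right of every panel, symbols for replicates 1 to 3, and bars for the mean ± SD (n = 3). The groups do not overlap for Rpl34, Rps27l, Rpl8, Rpl3l, Rplp0, Rplp1 and Rps3a1, and they overlap for Rpl30.

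On the positive side, the changes after Rps3a1 and Rplp1 were small and the groups mostly overlapped. Rpl41, the smallest ribosomal protein, read 11.17, 10.77 and 11.44 in KO arrays, against 11.09, 10.90 and 10.82 in WT arrays. Rpl30, which in yeast represses splicing of its own message, read 7.13, 6.85 and 6.997 in KO arrays, against 6.91, 6.78 and 6.73 in WT arrays. Rps12, a protein of the small subunit head, read 11.87, 11.29 and 11.74 in KO arrays, against 11.60, 11.38 and 11.37 in WT arrays. Each of these 3 changed by 0.19, with limma adjusted p of 0.593, 0.40 and 0.569 for Rpl41, Rpl30 and Rps12. KO array 2 was the lowest KO array in all 3 of them. With each array left out in turn, the change ranged from 0.03 to 0.37 for Rpl41 and from 0.12 to 0.26 for Rpl30. For Rps12 it ranged from 0.07 to 0.36. The change was highest without KO array 2 in all 3 genes.

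Rps15a, of the body of the small subunit, read 7.34, 6.96 and 6.99 in KO arrays, against 6.87, 6.92 and 6.98 in WT arrays. Rpl32l read 7.71, 7.23 and 7.43 in KO arrays, against 7.41, 7.18 and 7.36 in WT arrays. Both overlapped between genotypes, with log2 changes of 0.17 and 0.14. Rps23rg1 read 4.89, 4.81 and 4.96 in KO arrays, against 4.68, 4.75 and 4.74 in WT arrays, without overlap (log2 change 0.16 ± 0.10 SE, limma adjusted p = 0.419).

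Of the 37 members with several probe sets of distinct values, 33 had probe sets of 1 direction and 4 did not, all with small changes. Some probe sets repeat the values of another, as all 3 of Rpl41 do, so the 217 probe sets hold 205 distinct ones. Rps14 read 10.33, 10.09 and 10.37 in KO arrays, against 10.52, 10.24 and 10.17 in WT arrays, and its 2 probe sets changed by -0.05 and 0.01. Rpsa, also known as the laminin receptor precursor, read 10.70, 10.62 and 10.95 in KO arrays, against 10.93, 10.69 and 10.66 in WT arrays. Its 5 probe sets ranged from -0.005 to 0.09. The groups of both genes overlapped. Rpl28 read 12.15, 12.04 and 12.04 in KO arrays, against 12.16, 12.05 and 12.04 in WT arrays, and its 5 probe sets ranged from -0.007 to 0.005. Rps18, of the small subunit head, read 11.10, 10.65 and 10.90 in KO arrays, against 11.04, 10.80 and 10.76 in WT arrays, and its 7 probe sets ranged from -0.09 to 0.02. Over the 239 probe sets that list a ribosomal protein with other symbols, the median change was -0.09, with 189 negative and 50 positive, and 8 changed by over 0.3.

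Some ribosomal protein genes have a close relative elsewhere in the genome, and 3 such pairs could be compared within an array. Rpl7l1, a relative of Rpl7, read 7.998, 8.15 and 7.77 in KO arrays, against 8.04, 8.08 and 8.10 in WT arrays. Rpl7 read 11.05, 10.72 and 11.09 in KO arrays, against 11.02, 10.82 and 10.81 in WT arrays. The log2 level of Rpl7l1 minus that of Rpl7 was 0.17 lower in KO arrays than in WT arrays (difference -0.17, two-sided exact permutation p = 0.6, unadjusted over the 3 pairs), in a design whose smallest possible p is 0.1. The difference was -0.003 without KO array 3 and -0.37 without KO array 2. Rpl10l, a testis-enriched copy of the X-linked Rpl10, read 6.44, 6.35 and 6.47 in KO arrays, against 6.62, 6.41 and 6.43 in WT arrays. Rpl10 read 12.23, 11.99 and 12.01 in KO arrays, against 12.21, 12.11 and 12.09 in WT arrays. The within-array difference between them moved by -0.002 between genotypes (exact permutation p = 1).

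Rps4x, the X-linked copy of Rps4, read 10.67, 10.21 and 10.66 in KO arrays, against 10.72, 10.50 and 10.51 in WT arrays. Its relative Rps4l, annotated as a pseudogene, read 6.48, 6.05 and 6.49 in KO arrays, against 6.46, 6.59 and 6.45 in WT arrays. The difference Rps4l minus Rps4x moved by -0.10 (exact permutation p = 0.4). Rpl22, whose paralogue Rpl22l1 had no probe set of its own, read 7.37, 7.15 and 7.22 in KO arrays and 7.65, 7.25 and 7.39 in WT arrays. Rpl36a, whose paralogue Rpl36al had none either, read 9.84, 9.49 and 9.82 in KO arrays and 9.90, 9.62 and 9.56 in WT arrays. Values of both genes overlapped between genotypes.

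Most members moved together from array to array within a genotype. Relative to each gene's WT mean, the median over the 61 tested members was 0.05, -0.22 and -0.03 in KO arrays 1 to 3, and 0.13, -0.05 and -0.08 in WT arrays 1 to 3. Over all genes tested the same medians lay between -0.05 and 0.03. KO array 2 was the lowest KO array in 52 of 61 members (85.2%), where it was so in 22.9% of all genes tested. WT array 1 was the highest WT array in 56 of 61 members (91.8%), beside 29.4% of all genes tested. Without KO array 2 the median change of the members was -0.01, and without WT array 1 it was also -0.01, so the small negative median rests on these 2 arrays.

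**Figure D4:**
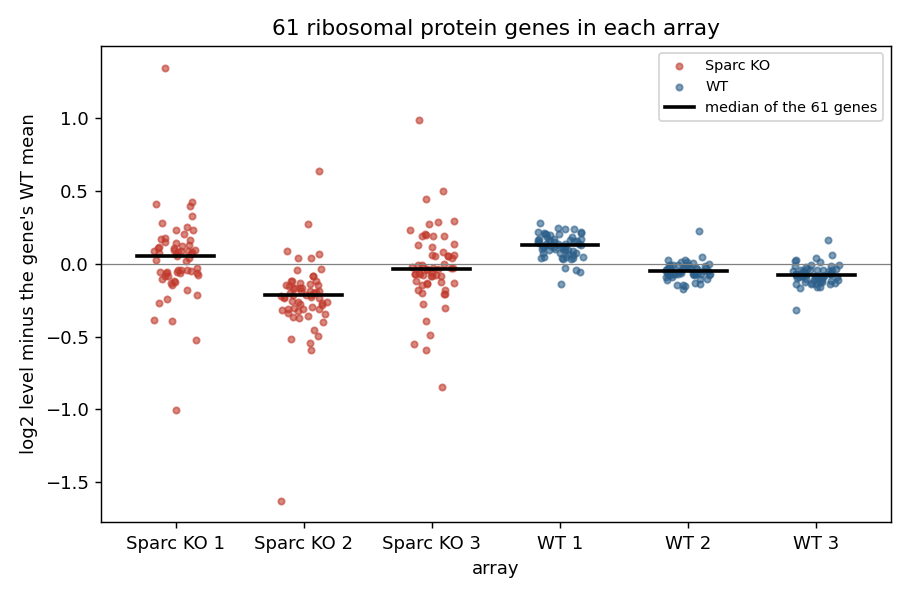
Log2 level of each of the 61 tested genes in each array minus that gene's WT mean, with a black bar at the median. Most genes lie below 0 in KO array 2 (median -0.22) and above 0 in WT array 1 (median 0.13), while the isolated low and high points in the KO arrays are Rpl34 and Rps3a1.

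Marker genes of other cells also differed from array to array. The median of the 14 macrophage markers, relative to their WT means, was 1.14, 0.37 and 0.29 in KO arrays 1 to 3 and -0.03, 0.00 and 0.05 in WT arrays, and their summed intensity was 3527.8 to 6320.08 in KO arrays and 2556.06 to 2840.35 in WT arrays. Fibroblast and matrix markers stood at 0.77, 0.19 and 0.92 in KO arrays and -0.09, 0.04 and 0.07 in WT arrays, with summed intensities of 15489.8 to 26727.5 in KO arrays and 13443.1 to 14661.4 in WT arrays. KO array 2 was thus the lowest KO array for fibroblast markers and for ribosomal proteins. By the median it was also the lowest for fat cell markers and for tendon markers. Tendon markers stood at 1.15, 0.10 and 0.28 in KO arrays 1 to 3. Summed intensity of fat cell markers was instead lowest in KO array 3 (2856.5, 2540.68 and 2331.96). Among KO arrays the median was highest in array 2 for endothelial markers (0.22, 0.32 and -0.38) and muscle fibre markers (-0.25, -0.06 and -0.12). Endothelial summed intensity was highest in KO array 1 (4295.92, beside 4243.56 in KO array 2). The mean of the muscle fibre markers, relative to their WT means, was highest in KO array 3 (0.07, beside -0.07 in KO array 2). For macrophage, satellite cell and B and T cell markers the median of KO array 2 lay between those of the other KO arrays. By summed intensity KO array 2 was the lowest KO array for macrophage markers (6320.08, 3527.8 and 3716.99 in KO arrays 1 to 3). The same held for B and T cell markers (165.99, 152.16 and 153.21), so the rank depended on the measure. Fat cell markers stood at -0.48, -0.61 and -0.35 in KO arrays and -0.69, 0.26 and 0.41 in WT arrays, so WT array 1 was the lowest for fat markers and the highest for ribosomal proteins. The part of these cell types in the ribosomal protein values was not tested.

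With the members' own median taken off in each array, the spread among replicates was narrower, as a description with no test. The median SD over members was 0.0948 in KO and 0.0537 in WT arrays, against 0.158 in KO and 0.120 in WT arrays before that step. This step itself takes off the movement that the members share in each array, so the narrower spread follows from it. It also balances the members around 0, so their counts in each direction on this scale are not given. Rpl34 (-1.08), Rps27l (-0.38), Rpl8 (-0.32), Rplp1 (0.30) and Rps3a1 (1.07) differed by over 0.3. Rpl3l, at -0.30, overlapped between genotypes on this scale, since KO array 2 then read 10.21 against 10.13 in WT array 1.

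Mitochondrial ribosomal proteins, which build the separate ribosome of that organelle, offered a comparison. Of the 48 tested Mrpl genes, 43 had negative changes (median -0.26), and in 30 all KO arrays lay below all WT arrays (62.5%, beside 16.4% of the cytosolic members and 13.8% of all genes). Of the 29 tested Mrps genes, 27 were negative (median -0.25), with 18 in which all KO arrays lay below (62.1%). At the adjusted threshold by limma, 1 Mrpl gene was higher (2.08%, beside 0.321% of all genes). In the other direction, 2 Mrpl genes (4.17%) and 1 Mrps gene (3.45%) were lower, beside 0.673% of all genes. Their medians by array were -0.23, -0.25 and -0.31 in KO and 0.11, -0.06 and -0.06 in WT arrays for Mrpl genes, with KO array 2 the lowest KO array in 10 of 48 Mrpl and in 3 of 29 Mrps genes. WT array 1 was the highest WT array in 40 of 48 Mrpl and 25 of 29 Mrps genes, so its high was shared by cytosolic and mitochondrial genes. The difference between the cytosolic and the mitochondrial genes was not tested.

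Genes that make and run the ribosome were described by lists, whose counts at an unadjusted p under 0.05 stand beside 10.3% lower and 8.16% higher of all genes tested. RNA polymerase I and its factors, which transcribe ribosomal RNA, had a median change of -0.16 over 16 tested genes, 13 of them negative. At an unadjusted p under 0.05, 4 were lower and 0 higher. Polr1d, a subunit shared with RNA polymerase III, was the only one past the adjusted threshold (6.25%, beside 0.673% of all genes called lower). It read 7.61, 7.61 and 7.79 in KO arrays, against 8.74, 8.28 and 8.28 in WT arrays (log2 change -0.76 ± 0.14 SE, limma adjusted p = 0.0482). Its other probe set changed by 0.11, so its probe sets differ in sign.

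Ribosome assembly factors had a median change of -0.11 over 43 tested of 44 listed genes, with 35 negative and 0 past the adjusted threshold by limma (9 lower and 0 higher at an unadjusted p under 0.05). Their smallest p-values were those of Grwd1, a histone-binding protein of large-subunit assembly (log2 change -0.38 ± 0.09 SE, limma adjusted p = 0.0876), and Emg1, a ribosomal RNA methyltransferase (-0.38 ± 0.10 SE, limma adjusted p = 0.101). Initiation factors had a median of -0.07 over 30 tested of 35, with 22 negative and 0 past the adjusted threshold by limma (5 lower and 0 higher at an unadjusted p under 0.05). Eif2b5, the catalytic subunit of the exchange factor for eIF2, changed by -0.38 ± 0.09 SE (limma adjusted p = 0.0829), and the eIF3 subunit Eif3f by -0.41 ± 0.11 SE (limma adjusted p = 0.113).

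Elongation, termination and nascent-chain factors had a median of -0.06 over 17 tested of 19, with 10 negative and 0 past the adjusted threshold by limma (3 lower and 1 higher at an unadjusted p under 0.05). Btf3, a subunit of the nascent-polypeptide-associated complex, changed by -0.32 ± 0.09 SE (limma adjusted p = 0.131), and Eef2k, the kinase that inhibits elongation factor 2, by -0.35 ± 0.11 SE (limma adjusted p = 0.135). Genes of mTOR, the S6 kinases and related translation control had a median of -0.15 over 17 tested of 23, with 11 negative and 0 past the adjusted threshold by limma (5 lower and 0 higher at an unadjusted p under 0.05). The partners of the complex that inhibits mTORC1 had the smallest p-values, Tsc1 at -0.43 ± 0.10 SE (limma adjusted p = 0.0784) and Tsc2 at -0.45 ± 0.11 SE (limma adjusted p = 0.102). Fau, whose product is cleaved to the small-subunit protein eS30, read 10.26, 9.94 and 10.16 in KO arrays, against 10.31, 10.12 and 10.16 in WT arrays. It changed by -0.08 ± 0.11 SE (limma adjusted p = 0.773), with KO array 2 lowest and WT array 1 highest, as in most members.

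**Figure D5:**
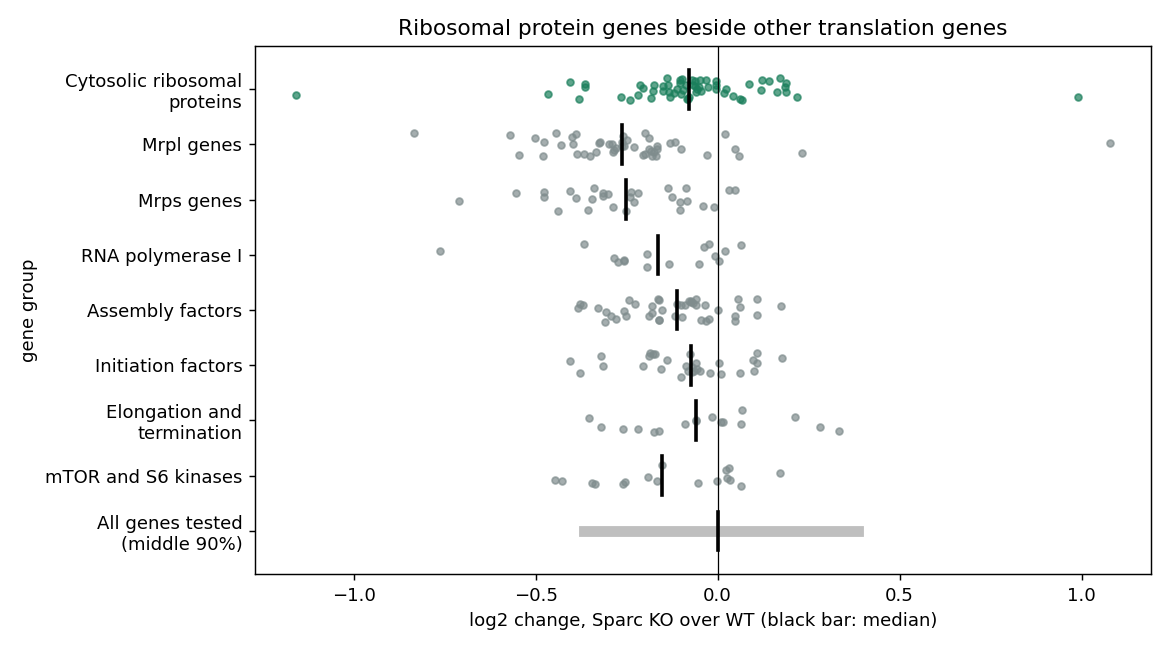
Log2 change, KO over WT, of each tested gene in the cytosolic ribosomal protein set and in 7 related gene groups, with a black bar at each median and a grey bar for the middle 90% of all genes tested. The cytosolic genes have a median of -0.08, the Mrpl and Mrps genes medians of -0.26 and -0.25, and all genes tested a median of 0.00.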

How the data were processed

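Per the submitters' processing notes, the authors used RMA and Affymetrix Expression Console 1.3.0.187. They deposited linear intensities of 35556 probe sets, from 1.59 to 13565.8. RMA shrinks differences between low values. The log2 of each deposited intensity was taken with no offset, although the design had assumed values deposited as log2. No genome build is given in the sources used here. Array medians were 40.5 to 44.7. Precision is limited by the number of arrays. All 6 value columns were used.

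Names came from the platform annotation (21789 with 1 symbol, 1621 with several, 12146 unnamed), and 21698 matched RefSeq GRCm38.p6 by Entrez ID with 0 symbols changed. Each gene took its highest-mean probe set, and genes under the 25th percentile (3.90) were left out. KO and WT were compared by limma 3.58.1 in R 4.3.3 (lmFit, eBayes with trend, two-sided, Benjamini-Hochberg over 16487 genes, threshold 0.05). SE is the fit's. Pairs had an exact permutation test.

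The members and lists were chosen with earlier results of these data known. Genes printed by array are those past the threshold, the 8 largest changes in each direction, the listed paralogue pairs and members whose probe sets differ in sign. From each pathway list, genes past the threshold or the 2 with the smallest p are named. Rplp2, Rps2, Rps6 and Rpl38 were added after their values were seen. Alternatives covered normalization, filter, probe sets, variance model, array weights, offset, replicate block and leaving out each array. Same-numbered arrays share only a number (correlations of their deviations 0.01, 0.08 and -0.02).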

Additional observations from a re-analysis of the deposited data

How the results depend on the processing

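Over 10 alternatives that kept all arrays, Rpl34 was the single member called lower in all 10 (limma adjusted p 0.00789 to 0.0493). Rps3a1 was called higher in 7 of the 10 (0.0133 to 0.0922). The count of members called higher was 0 with median centring, 0 without the variance trend and 0 with an offset of 16, and the cause was not tested. With each array left out in turn, the count called higher was 0 to 1 and the count called lower was 0 to 2, with 2 without KO array 2 (Rpl34 and Rpl3l) and 0 without any 1 of the WT arrays. The median change was -0.12 with median centring, -0.05 after a second quantile normalization, and -0.13 to -0.01 with each array left out. Those 2 scalings shifted the median of all genes by -0.04 and -0.02. With the replicate number as a block the counts were 1 higher and 1 lower, the median was -0.08, and the replicate block changed neither call. Over all genes, 53 were higher and 111 lower in the comparison as reported. In all, 1017 passed without KO array 2, 27 to 32 without 1 WT array, 103 with median centring, 329 with array weights, and 620 after centring on the ribosomal protein median, an alternative added after seeing the data. Without Rps19bp1 and Rps23rg1, also added later, the median was -0.08.

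Uncalled changes near 0 turned sign in places. Rpl28 was 0.0405 after a second quantile normalization. Rps18 was -0.0234 with median centring, -0.0190 with the mean of probe sets and -0.0257 with array weights. Rpsa was 0.00625 after a second quantile normalization, 0.0429 with the mean of probe sets and 0.0123 with array weights. With each array left out, Rpl10l ranged from -0.100 to 0.00606, Rpl28 from -0.0404 to 0.0334, Rpl7 from -0.000959 to 0.184, Rps14 from -0.115 to 0.0602, Rps18 from -0.0905 to 0.135, Rps4x from -0.139 to 0.0869 and Rpsa from -0.101 to 0.0782.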
